A study of Mus musculus with 267 samples.

Results

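Dimethylation of histone H3 at lysine 4 (H3K4me2) was compared between macrophages with and without the transcription factor EGR2 after 24 h of interleukin-4 (IL-4). The 4677 regions were those where 24 h of IL-4 induced EGR2 binding in C57 macrophages, so they do not stand for all sites that EGR2 binds. The comparison holds 4 of the 267 samples of the series: 2 LyzMCreEgr2flfl libraries and 2 Egr2flfl libraries, and all 4677 regions entered it. Bone marrow-derived macrophages (BMDMs) were grown with M-CSF from young adult female mice and then treated with mouse recombinant IL-4 at 20 ng/mL for 24 h or left untreated (basal). Both genotypes carry 2 floxed Egr2 alleles. LyzMCreEgr2flfl mice also carry Cre under the Lyz2 (LyzM) promoter, which is active in myeloid cells. Egr2flfl mice have no Cre, so the genotypes also differ in Cre itself. The labels name biological replicates but not the animals or cultures behind each library, so p-values measure the spread between libraries as deposited.

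EGR2 is a zinc-finger transcription factor that IL-4 induces in macrophages downstream of STAT6, as part of the response known as alternative activation. H3K4me2 marks promoters and enhancers, including enhancers that are open but not strongly active, whereas acetylation at lysine 27 (H3K27ac) follows activity more closely. PU.1 and C/EBPβ are factors that establish macrophage enhancers. An enhancer that gains these marks only after a stimulus is often called latent.

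Values were tags in a 1000 bp window on each EGR2 peak, scaled by the authors to a library total of 10000000 tags. The 8 H3K4me2 libraries of both genotypes and both treatments held between 9310823 and 22837514 tags. At 24 h, 1.719% and 2.169% of tags of the Egr2flfl libraries lay in the regions, against 1.706% and 2.013% of the LyzMCreEgr2flfl libraries (exact permutation test, two-sided p = 0.667, smallest possible 0.333). A level of 16 normalized tags stood for 14.9 to 36.54 reads, depending on the library. The files used here hold no transcript, so the deletion itself could not be checked in them. The study reports that Egr2 was efficiently deleted in BMDMs of this cross. The region within Egr2, 3.74 kb from its start, had 55.85 and 79.53 tags in Egr2flfl and 40.43 and 54.63 in LyzMCreEgr2flfl, and whether it lies in the deleted part was not given. Of 9 macrophage markers 2 had a region, Csf1r and Adgre1, with 51.55 to 103.87 tags in all 4 libraries. The granulocyte and mast cell markers Mpo and Kit also had a region, with 11.54 to 31.02 tags. No region lay near the start of a T cell, B cell or fibroblast marker on the lists. All regions were EGR2 peaks of C57 macrophages, so these values do not measure the purity of the cells.

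The sequences below are shown because they carry the largest falls of H3K4me2 that hold a match to a loose form of the EGR consensus. Each is 80 bases of the GRCm38 (mm10) genome around the match, which is in capitals, read 5′ to 3′ on the strand of the match. The letters searched were GNGTGGGNG (N is any base), a looser form of GCGTGGGCG, on both strands within 300 bp of genome centred on each peak. None of the 8 matches shown is GCGTGGGCG. All 8 lie between genes or in introns of protein-coding genes.

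Smyd3 intron (chr1:178981059-178981138, minus strand): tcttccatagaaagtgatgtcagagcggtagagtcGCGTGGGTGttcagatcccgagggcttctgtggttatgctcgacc
upstream of Kcnj16 (chr11:110815294-110815373, minus strand): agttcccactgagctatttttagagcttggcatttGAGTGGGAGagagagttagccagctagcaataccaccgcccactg
St3gal3 intron (chr4:118093721-118093800, minus strand): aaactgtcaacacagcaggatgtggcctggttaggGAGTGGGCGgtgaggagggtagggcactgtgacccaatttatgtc
Plcb4 intron (chr2:135938685-135938764, minus strand): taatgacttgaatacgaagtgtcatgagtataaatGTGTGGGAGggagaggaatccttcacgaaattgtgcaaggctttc
Lin9 intron (chr1:180683902-180683981, minus strand): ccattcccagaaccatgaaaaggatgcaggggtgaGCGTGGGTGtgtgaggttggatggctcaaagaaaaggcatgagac
upstream of Foxq1 (chr13:31304489-31304568, minus strand): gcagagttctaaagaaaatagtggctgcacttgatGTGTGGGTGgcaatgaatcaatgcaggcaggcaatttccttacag
Rgl1 intron (chr1:152733260-152733339, minus strand): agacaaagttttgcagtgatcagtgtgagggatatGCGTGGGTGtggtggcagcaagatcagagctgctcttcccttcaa
Dlgap1 intron (chr17:70780943-70781022, minus strand): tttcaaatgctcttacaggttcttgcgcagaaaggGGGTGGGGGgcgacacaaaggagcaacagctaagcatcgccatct

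A pair of regions that hold the same letters and whose H3K4me2 differed little, by -0.20 near Tmem26 and -0.01 near Klf6 on the log2 scale (-0.07 and 0.12 under the median-ratio scaling described further on), are shown for comparison. The pair was chosen after the values were seen and is not matched in basal H3K4me2. Basal levels were 17.62 to 28.29 tags near Tmem26 and 74.8 to 92.83 near Klf6, against at most 8.11 at the falls shown above. The H3K27ac differences were -1.15 near Tmem26 and 0.05 near Klf6 (limma adjusted p = 0.00876 and 0.912). Tmem26 encodes a membrane protein that IL-4 induces in macrophages, and Klf6 a Krüppel-like factor.

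near Tmem26 (chr10:68706132-68706211, minus strand): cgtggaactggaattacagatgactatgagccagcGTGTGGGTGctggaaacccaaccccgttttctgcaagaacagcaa
near Klf6 (chr13:5888398-5888477, minus strand): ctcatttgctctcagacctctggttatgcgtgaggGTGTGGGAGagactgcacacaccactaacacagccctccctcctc

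H3K4me2 was lower in LyzMCreEgr2flfl macrophages at a minority of these 4677 regions with IL-4-induced EGR2 binding. The lower regions were mostly those with little H3K4me2 before IL-4. By limma on log2(tags + 1) with Benjamini-Hochberg adjusted p below 0.05, 418 of 4677 regions were lower (8.94%) and 7 were higher (0.15%). The median log2 difference (LyzMCreEgr2flfl minus Egr2flfl) over all regions was -0.16. Both LyzMCreEgr2flfl libraries lay below both Egr2flfl libraries at 1642 regions (35.1%) and above them at 446 (9.54%). In the 418 lower regions the median level was 22.55 and 22.56 tags in Egr2flfl at 24 h, and 5.05 and 5.39 in LyzMCreEgr2flfl. Before IL-4 the medians in these regions were 8.11 and 6.92 in Egr2flfl and 4.93 and 3.94 in LyzMCreEgr2flfl. In bulk chromatin, fewer cells with the mark and less mark per cell cannot be told apart.

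The number of lower regions depended on how the libraries were scaled and on single libraries. When each library was instead divided by its median ratio to the geometric mean, which sets a shift shared by all regions to about 0 (median difference -0.02), 169 regions were lower (3.61%) and 45 were higher (0.962%). Of the 169 regions, 168 were among the 418. With this scaling both LyzMCreEgr2flfl libraries lay below at 1417 regions (30.3%) and above at 1162 (24.8%). The share of calls that were lower therefore went from 98.4% to 79.0%. Under the deposited scaling, 126 regions were lower without Egr2flfl replicate 1, 109 without Egr2flfl replicate 2, and 200 without LyzMCreEgr2flfl replicate 1. Under the median-ratio scaling, 2 and 33 were lower without Egr2flfl replicates 1 and 2, and 38 and 58 without LyzMCreEgr2flfl replicates 1 and 2. The counts of higher regions were 1, 69, 3 and 5 in the same order, so without Egr2flfl replicate 2 more regions were higher than lower, and 32.4% of calls were lower. A test-free rule, with group means plus 1 at least 2.5-fold apart and at least 16 tags in either genotype, gave 268 lower regions of 3916 (6.84%) and 0 higher (0.0%). At 1.5-fold the rule gave 826 lower regions (21.1%) and 80 higher (2.04%).

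The difference between genotypes was concentrated in regions with low basal H3K4me2. Regions were divided into tertiles of 1559 by their mean over the 4 basal libraries, which do not enter the difference at 24 h. In the lowest tertile (0 to 17.8 tags in basal), the median level at 24 h was 15.04 and 15.79 tags in Egr2flfl and 7.22 and 6.92 in LyzMCreEgr2flfl. In basal the same regions had medians of 8.11 and 7.54 in Egr2flfl and 6.34 and 5.25 in LyzMCreEgr2flfl. The Egr2flfl libraries at 24 h thus stood above all others, whereas the LyzMCreEgr2flfl libraries at 24 h lay within the range of the basal libraries of both genotypes. They were still above the basal libraries of their own genotype. The median log2 change with IL-4 in this tertile was 0.22 in LyzMCreEgr2flfl and 0.91 in Egr2flfl. The median log2 difference in this tertile was -0.98 (-0.86 under the median-ratio scaling), and 368 regions were lower, which is 23.6% of the tertile and 88.0% of all lower regions. Without Egr2flfl replicate 1 or 2 or LyzMCreEgr2flfl replicate 1 at 24 h, 112, 99 and 182 of its regions were lower. Both LyzMCreEgr2flfl libraries lay below both Egr2flfl libraries at 1086 of its regions (69.7%).

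**Figure D1:**
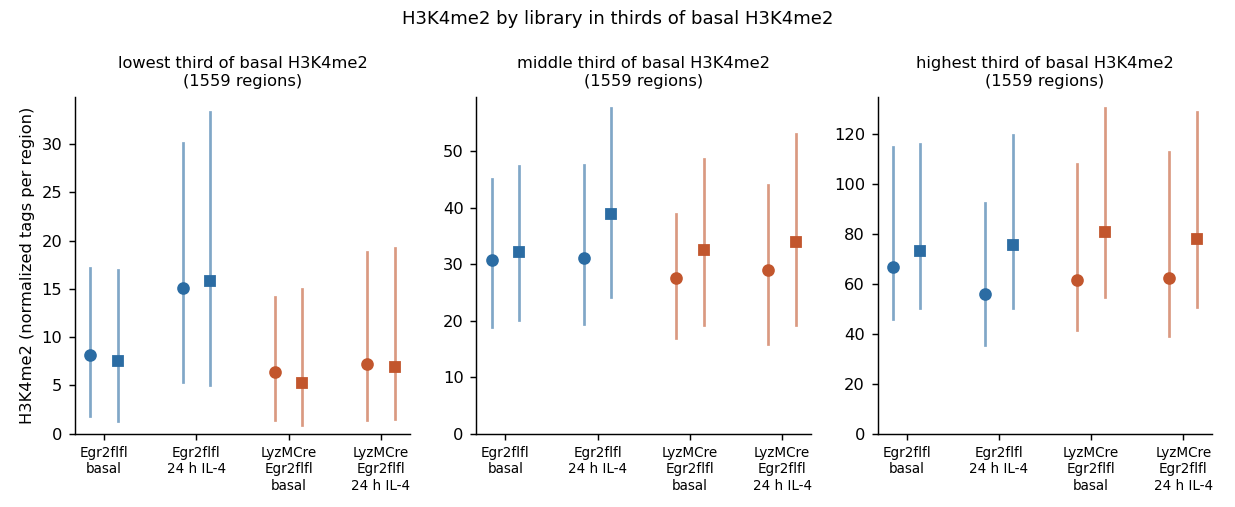
Median normalized H3K4me2 tags in every library, for regions in the lowest, middle and highest tertile of basal H3K4me2 (1559 regions each). Circles (replicate 1) and squares (replicate 2) are the medians of single libraries, and lines reach from the lower to the upper decile of regions. At low basal levels the Egr2flfl libraries at 24 h (15.04 and 15.79) stand above the other 6, which lie between 5.25 and 8.11.

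In the middle tertile the medians were 31.15 and 38.92 tags in Egr2flfl and 28.88 and 33.85 in LyzMCreEgr2flfl, and 49 regions were lower. In the highest tertile the levels of the genotypes overlapped, at 55.85 and 75.58 tags in Egr2flfl and 62.09 and 77.71 in LyzMCreEgr2flfl. The median log2 difference there was 0.12 (0.26 under the median-ratio scaling), with 1 region lower and 3 higher. After median-ratio scaling 2 regions were lower and 38 higher (2.44%) in this tertile. Precision was not equal between these groups: the median standard error of the log2 difference was 0.51 in the lowest tertile and 0.32 in the highest. At most 3 reads were counted in 5.1% and 2.0% of lowest-tertile regions in Egr2flfl at 24 h, against 15.3% to 21.4% in the other 6 libraries.

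**Figure D2:**
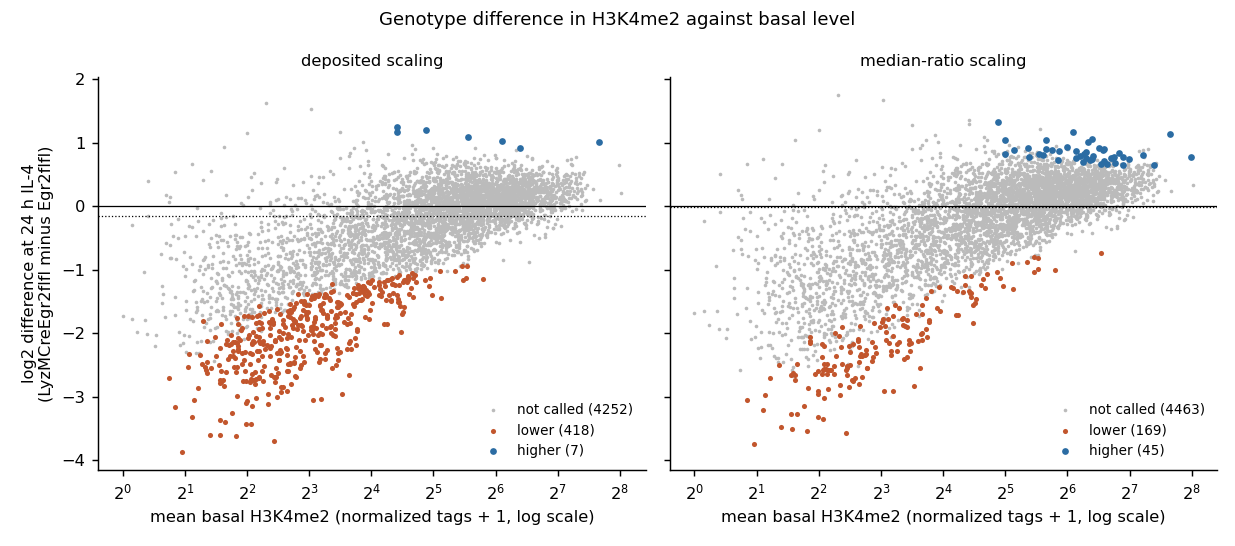
Log2 difference of H3K4me2 between genotypes at 24 h (LyzMCreEgr2flfl minus Egr2flfl) against mean basal H3K4me2 for the 4677 regions, under both scalings. Regions called lower or higher by limma are coloured, and the dotted line is the median of all regions. Lower regions gather at low basal tags: 368 of 418 lie in the lowest tertile.

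A scaling factor moves a difference between groups of regions within a library only through the 1 added before the logarithm. The median log2 level of the lowest tertile minus that of the highest was -1.83 and -2.19 in the Egr2flfl libraries at 24 h, and -2.94 and -3.31 in the LyzMCreEgr2flfl libraries. In the basal libraries of both genotypes it was between -3.71 and -2.89. Both LyzMCreEgr2flfl libraries had the wider gap at 24 h, with a mean difference of -1.12 between genotypes (exact permutation test, two-sided p = 0.333, the smallest that 2 against 2 libraries can give).

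**Figure D3:**
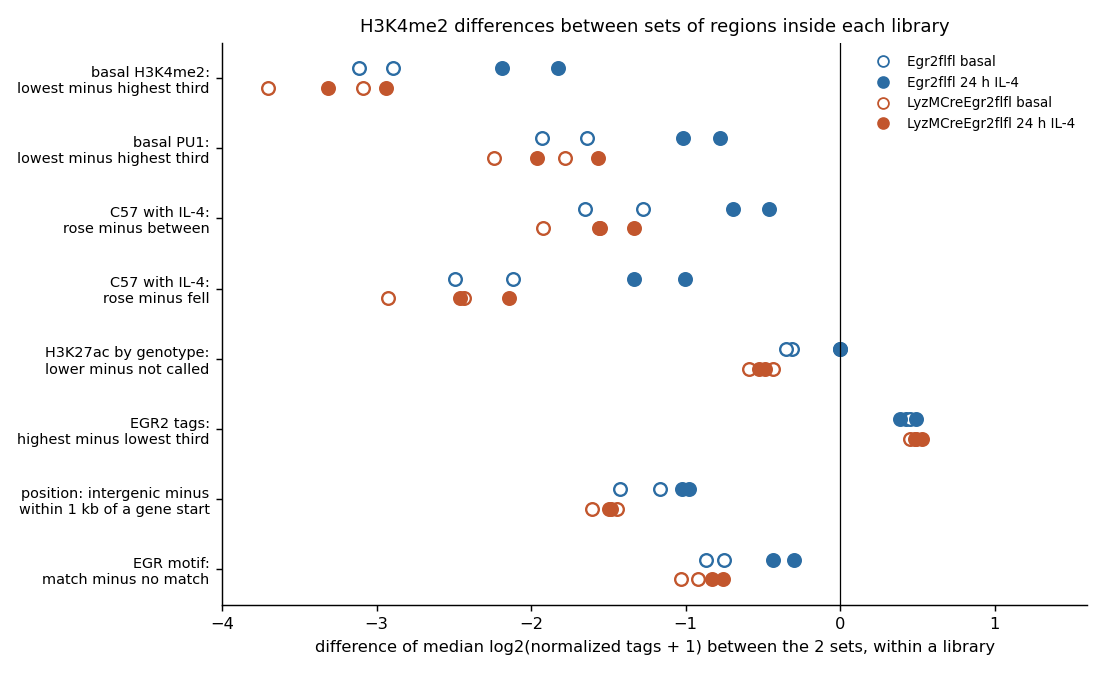
Median log2 H3K4me2 of one group of regions minus that of another within each library, on the horizontal axis, for 8 pairs of groups. Each point is 1 library, open in basal and filled at 24 h. For the lowest against the highest tertile of basal H3K4me2, the Egr2flfl libraries at 24 h sit at -1.83 and -2.19, and the 2 LyzMCreEgr2flfl libraries at 24 h at -2.94 and -3.31.

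The same regions were read in C57 macrophages, in libraries of another experiment of the series. Of the 4677 regions, 3018 had a C57 H3K4me2 region within 500 bp, and 439 of these had a level at least 1.5-fold higher after IL-4 than in basal in C57. Another 1167 were lower by the same factor, with no test. Over all matched regions the median C57 change with IL-4 was -0.43 on the log2 scale, and the C57 libraries were not rescaled. In Egr2flfl the 1167 regions changed by a median of -0.13 with IL-4 and the 439 by 0.885. In LyzMCreEgr2flfl these changes were -0.03 and 0.33. At the 439 regions the median level was 24.7 and 26.51 tags in Egr2flfl at 24 h and 12.27 and 12.31 in LyzMCreEgr2flfl. Basal medians were 13.52 and 11.32 in Egr2flfl and 9.87 and 9.2 in LyzMCreEgr2flfl. Here 138 regions were lower by genotype (31.44%, median log2 difference -0.89), and 56 after median-ratio scaling (12.76%). Of the 1167 regions lower after IL-4 in C57, 0.34% were lower by genotype and the median difference was 0.14. Of the 188 lower regions with a C57 match, 73.4% were among those higher after IL-4 in C57, against 14.5% of all matched regions. Within the lowest basal tertile, 38.9% of the 316 regions higher after IL-4 in C57 were lower by genotype, against 12.9% of the 209 regions that moved less than 1.5-fold. These shares were 14.9% and 2.4% after median-ratio scaling.

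In basal macrophages 4 regions were lower in LyzMCreEgr2flfl (0.0855%), and 239 regions had an unadjusted p below 0.05 in either direction. The 4, named after their values were seen, were nearest to Matk, S100a11, Mad1l1 and Chic2, and leaving out 1 library gave 0 to 9 such regions by limma. The interaction of genotype and IL-4, which tests whether the difference at 24 h departs from that in basal, was negative at 2 regions (0.0428%), with 302 at an unadjusted p below 0.05, and leaving out 1 library gave 0 to 13. At the other lower regions, a difference between the treatments was not shown by this test. In the 418 lower regions the median basal difference was -0.60, and 355 of them had a negative basal difference. With IL-4, 377 regions rose in Egr2flfl (8.06%) and 53 rose in LyzMCreEgr2flfl (1.13%). The counts were 136 and 39 under the median-ratio scaling. The 377 became 120 and 104 without Egr2flfl replicates 1 and 2 at 24 h, and 211 and 183 without the basal Egr2flfl libraries. The 53 became 19 to 36 when any 1 of the 4 LyzMCreEgr2flfl libraries was left out. These comparisons share libraries with the one at 24 h.

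The 10 largest falls, among 1579 regions with at least 16 tags in either genotype and no overlap between genotypes, lay outside promoters, and all 10 were called under both scalings. Of the 10, 7 were called without Egr2flfl replicate 1 or 2 at 24 h, 8 without LyzMCreEgr2flfl replicate 1 and 10 without replicate 2. These counts were 0, 3, 3 and 7 under the median-ratio scaling, in the same order, with all 10 differences negative each time. The constant sign largely follows from choosing large falls without overlap between genotypes. The first of the 10 was in an intron of Asap1, an Arf GTPase-activating protein, at chr15:64126000-64127000. It had 26.85 and 17.48 tags in Egr2flfl at 24 h and 0.72 and 0.77 in LyzMCreEgr2flfl, with 4.51 and 5.66 against 4.93 and 2.63 in basal. Only the Egr2flfl libraries at 24 h were high there. The log2 difference was -3.70 (SE 0.61, limma adjusted p = 1.55e-06). It rests on 2 reads in LyzMCreEgr2flfl against 56 in Egr2flfl, a ratio per library total of 0.036 (exact 95% counting interval 0.00425 to 0.136).

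At chr13:31304043-31305043, 251.59 kb upstream of Foxq1, a forkhead factor gene, 33.29 and 42.87 tags were counted in Egr2flfl and 5.05 and 2.31 in LyzMCreEgr2flfl (log2 difference -3.12, SE 0.55, limma adjusted p = 1.19e-05). This was the best covered of the 10, with 107 against 10 reads. The region in Smyd3, a lysine methyltransferase gene, had 17.18 and 25.95 tags in Egr2flfl and 0 and 2.31 in LyzMCreEgr2flfl. It rests on 62 against 3 reads, a ratio of 0.0487 (interval 0.00978 to 0.149). In Plcb4, which encodes a phospholipase C, 31.15 and 19.74 tags stood against 0.72 and 3.85, and basal levels were at most 2.11 in all 4 libraries.

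The region in St3gal3, a sialyltransferase gene, had 17.18 and 27.64 tags in Egr2flfl and 0.72 and 2.31 in LyzMCreEgr2flfl. In Rgl1, which encodes an exchange factor for Ral, the levels were 21.48 and 31.59 against 2.89 and 1.54. Lin9 encodes a subunit of a complex that controls cell cycle genes, and its region had 26.85 and 11.28 against 1.44 and 0.77 tags. The regions in Nt5dc3 and Dlgap1 and the one upstream of the potassium channel gene Kcnj16 completed the 10. At these 3 the Egr2flfl libraries lay between 14.1 and 26.51 tags, and the LyzMCreEgr2flfl libraries between 0 and 3.85. H3K27ac at 24 h, from other libraries, was lower at 9 of the 10 regions, against 23.2% of all regions, and at 8 of the 10 after median-ratio scaling. Near Kcnj16 it had a log2 difference of -1.75 (limma adjusted p = 0.0939).

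The 10 largest rises were smaller than the 10 largest falls on the log2 scale, and 6 of them passed the test. Without Egr2flfl replicate 1 at 24 h 1 of the 10 passed, without replicate 2 5 did, and without LyzMCreEgr2flfl replicates 1 and 2 it was 1 and 2, with all 10 differences positive each time. That sign was fixed by choosing regions without overlap between genotypes. Tnfrsf12a, the TWEAK receptor gene, had the highest level of the 10 rises, with 106.33 and 133.11 tags in Egr2flfl and 210.8 and 271.6 in LyzMCreEgr2flfl at a region 0.66 kb from its start. The log2 difference was 1.00 (SE 0.31, limma adjusted p = 0.0202). Its basal levels were 182.94 and 179.81 in Egr2flfl and 190.33 and 250.47 in LyzMCreEgr2flfl, so the Egr2flfl libraries at 24 h were the low ones. H3K27ac moved the other way there, at 215.08 and 217.73 tags in Egr2flfl and 58.18 and 66.16 in LyzMCreEgr2flfl (log2 difference -1.79, limma adjusted p = 0.000113).

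Aes, a Groucho-family corepressor gene, had 44.03 and 59.79 tags in Egr2flfl and 101.79 and 109.25 in LyzMCreEgr2flfl (log2 difference 1.02, limma adjusted p = 0.0197). Regions of Vmp1, an autophagy gene, and of Fkbp15, Ptp4a1 and Aplp2 were also higher, with log2 differences of 0.92 to 1.19. Of these 4, Vmp1 and Fkbp15 were called under the median-ratio scaling, as were Tnfrsf12a and Aes, while Ptp4a1 and Aplp2 had adjusted p = 0.137 and 0.113 by limma. At Lpl, the lipoprotein lipase gene, the Egr2flfl libraries had 49.4 and 50.2 tags and the LyzMCreEgr2flfl libraries 115.51 and 76.94 (limma adjusted p = 0.0524, and 0.0172 under the median-ratio scaling). The seventh region called higher lay in Zfhx3 (log2 difference 1.24, limma adjusted p = 0.0363). Its libraries overlapped between genotypes, with 19.33 and 4.51 against 31.04 and 18.47 tags, and it is named here after its values were seen.

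**Figure D4:**
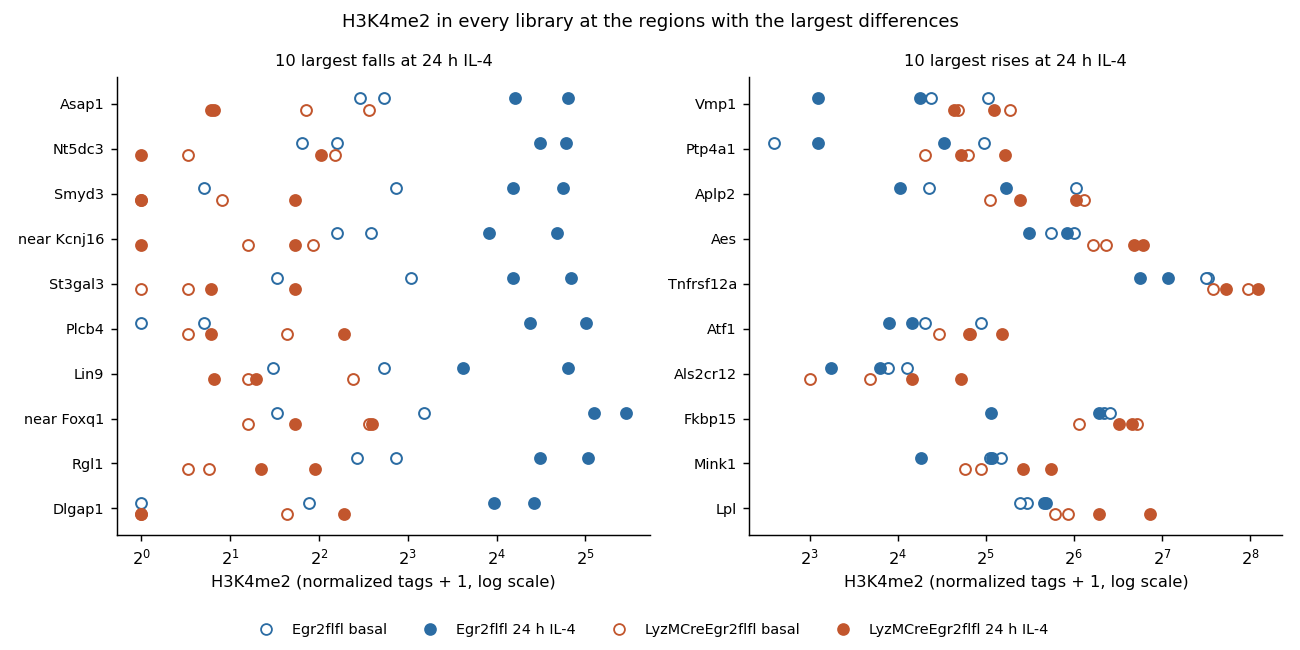
Normalized H3K4me2 tags plus 1 (log axis) in each of the 8 libraries at the regions with the 10 largest falls and the 10 largest rises at 24 h. At the falls the filled points of Egr2flfl stand to the right of all others, as at Asap1 with 26.85 and 17.48 tags, while the points of both genotypes lie closer together at the rises, the highest of which is Tnfrsf12a with up to 271.6 tags.

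The lists of genes known from IL-4 responses and macrophage biology held 117 genes, of which 47 had a region within 100 kb of their start. The region with the most tags was taken for each gene. It was lower at 1 of the 47, Chil3, and none passed the test for a rise, while over all regions the 24 h comparison called 8.94% lower. Of these strongest regions 21 were in the highest tertile of basal H3K4me2 and 6 in the lowest, and few regions of the highest tertile were called at all. Counting every region within 100 kb of a listed gene, 7 of 99 were lower (7.07%), 3 of them under both scalings. Chil3 encodes the secreted chitinase-like protein Ym1, a marker of alternative activation. Its region 5.17 kb upstream had 19.33 and 10.72 tags in Egr2flfl and 2.89 and 3.85 in LyzMCreEgr2flfl (log2 difference -1.83, SE 0.58, limma adjusted p = 0.0253). Under the median-ratio scaling the adjusted p was 0.102 by limma, and the call was also lost when any 1 of the 4 libraries at 24 h was left out (log2 difference -2.23 to -1.43). The H3K27ac difference there was -2.63 (limma adjusted p = 0.00396).

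Among the 21 IL-4 effector genes, 10 had a region, with a median log2 difference of -0.28 and 1 lower. The strongest region of Arg1, the arginase gene, had 39.74 and 48.51 tags in Egr2flfl and 42.59 and 44.62 in LyzMCreEgr2flfl, so the genotypes overlapped (log2 difference -0.01, and 0.13 under the median-ratio scaling). At Cdh1, the E-cadherin gene, the levels were 50.48 and 65.99 against 39.71 and 54.63. H3K27ac was lower at the same Cdh1 region, with a log2 difference of -0.71 (limma adjusted p = 0.0181). The test between marks did not separate them there (gap of 0.41 on the log2 scale, limma adjusted p = 0.702). Other effector genes with a region were Tmem26, Tgm2, Mgl2, Mmp8, Mmp12, Mmp13 and Pdcd1lg2, with log2 differences between -0.49 and 0.46.

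Of the 11 IL-4 receptor, JAK-STAT and SOCS genes, 5 had a region (median 0.11) and none of these strongest regions was called. Over all 10 regions of these genes the median was -0.23, with 1 lower. Il4ra, the receptor's ligand-binding chain, had 90.22 and 151.72 tags in Egr2flfl and 150.16 and 160.03 in LyzMCreEgr2flfl at 2.51 kb from its start. Socs2, a feedback inhibitor, had 25.78 and 25.38 against 14.44 and 9.23 (log2 difference -1.08, limma adjusted p = 0.123). Of 6 EGR and NAB genes, 4 had a region (median -0.20) and none was called. Nab1, a corepressor that binds EGR proteins, had 8.59 and 14.66 against 5.05 and 2.31 tags (log2 difference -1.45, limma adjusted p = 0.181).

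Signal-dependent factor genes (9 of 12 with a region) had a median of 0.00, and Rxra, the partner of PPARγ, had 54.77 and 50.2 against 93.13 and 85.4 tags (log2 difference 0.76, limma adjusted p = 0.123). Macrophage lineage factor genes (4 of 9 with a region) had a median of -0.05, where Cebpa had 41.89 and 38.35 against 18.05 and 32.31 tags (log2 difference -0.71, limma adjusted p = 0.208). Over all 8 regions of the lineage factor genes the median was -0.67 (-0.53 after median-ratio scaling), with 1 lower. The medians of the strongest regions were -0.26 for lipid handling genes (6 of 12), -0.15 for inflammatory genes (4 of 14) and -0.18 for genes the study uses as examples (6 of 9). Macrophage markers (2 of 9) had a median of 0.18, and granulocyte and mast cell markers (2 of 7) of -0.60, the latter from Mpo and Kit. None of these strongest regions was called. Under the median-ratio scaling the medians of the lists were higher by about as much as that of all regions, and those of macrophage lineage factors (0.08), EGR and NAB genes (-0.06) and signal-dependent factors (0.14) were then close to or above 0.

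Weaker regions of 6 listed genes were lower. These were chosen after their values were seen. Within Mmp12, a macrophage metalloelastase gene, a region 7.99 kb from the start had 11.81 and 24.82 tags in Egr2flfl and 0.72 and 3.85 in LyzMCreEgr2flfl (log2 difference -2.65, limma adjusted p = 6.73e-05). Within Spi1, which encodes PU.1, a region 8.63 kb from the start had 39.74 and 67.12 against 16.6 and 25.39 tags (log2 difference -1.29, limma adjusted p = 0.00813). Both were also called under the median-ratio scaling, and with 1 library at 24 h left out Mmp12 was called in 3 of 4 cases and Spi1 in 2. Regions 14.83 kb upstream of Il4ra, 4.09 kb upstream of Batf3, 79.14 kb from Myc and 62.33 kb from Bhlhe40 were lower, with log2 differences of -1.63, -2.36, -1.51 and -1.65, and of these only Batf3 was called under the median-ratio scaling. With 1 library at 24 h left out Batf3 was called in 3 of 4 cases and each of the others in 1. Pkp2, a plakophilin gene that is on none of the lists, was the one gene with 3 lower regions, all 3 of its regions (log2 differences -1.75, -1.42 and -1.23), and 2 of them were called under the median-ratio scaling and in 2 of 4 cases with 1 library left out. Over all, 340 of the 418 lower regions lay within 100 kb of a protein-coding gene start, and these belonged to 321 genes.

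Lower regions lay in genes (56.9%) and between genes (41.4%) in shares near those of all regions (54.0% and 42.1%). Few were close to a start: 7 of the 184 regions within 1 kb of a gene start were lower (3.8%) and 3 were higher, with a median log2 difference of 0.29. After median-ratio scaling 5 were lower and 11 higher, with a median of 0.43. These promoter regions had 58.0 and 76.7 tags in Egr2flfl at 24 h and 77.25 and 87.71 in LyzMCreEgr2flfl. The median EGR2 level in C57 at 24 h was 34.74 tags in lower regions and 29.78 in all regions. By tertile of EGR2 level, 6.67%, 8.47% and 11.67% of regions were lower from the lowest to the highest, whereas the median log2 differences were -0.19, -0.15 and -0.13 in the same order. Within each library the highest EGR2 tertile had more H3K4me2 than the lowest, and this gap was wider in LyzMCreEgr2flfl by 0.07 on the log2 scale (exact permutation test, two-sided p = 0.333, the smallest possible). Within the lowest tertile of basal H3K4me2, these shares were 15.2%, 22.9% and 35.9%.

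The loose EGR letters GNGTGGGNG were found in 43.78% of the 418 lower regions, in 26.77% of all regions and in 14.31% of 32851 RefSeq promoters of the same 300 bp length. Among the 169 regions lower under the median-ratio scaling the share was 52.66%. Regions with the letters were lower in 14.62% of cases and those without in 6.86%. Regions with the letters also had less basal H3K4me2, and within the lowest basal tertile the shares were 27.4% and 21.1%. Of the 10 largest falls 8 had a match to these letters, and Asap1 and Nt5dc3 had none. The stricter GCGTGGGCG was in 2 of the 418 lower regions (0.48%), in 10 of all regions (0.21%) and in 0.61% of the promoters. The letters searched for other factors were not more frequent in lower regions than in all. TTCNNNNGAA, the STAT6 palindrome, was in 16.99% of lower and 21.17% of all regions. GAGGAAGT, for PU.1, was in 6.7% and 8.47%, TTGCNNCAA, for C/EBP, in 2.15% and 3.14%, and TGANTCA, for AP-1, in 23.68% and 25.68%. These shares in 32851 promoters were 6.95%, 3.2%, 2.08% and 7.81%, in the same order. All were searched on both strands, and matches of different letters may overlap.

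H3K27ac was measured in other libraries of the same genotypes and differed at more of these regions. By limma, H3K27ac at 24 h was lower in LyzMCreEgr2flfl at 1087 regions (23.2%) and higher at 66 (1.41%), with a median log2 difference of -0.50 over all regions. This depended on the scaling: after median-ratio scaling of the H3K27ac libraries, 498 regions were lower and 538 higher, and the median was -0.03. In the 418 regions with lower H3K4me2 the median H3K27ac was 12.06 and 12.85 tags in Egr2flfl and 3.12 and 2.9 in LyzMCreEgr2flfl. Both marks were lower at 235 regions, which is 56.2% of the regions with lower H3K4me2 and 21.6% of those with lower H3K27ac. After median-ratio scaling of both marks, 68 of the 169 regions with lower H3K4me2 also had lower H3K27ac. H3K27ac was thus lower without a call for H3K4me2 at most of its regions. Where H3K27ac was not called, 5.19% of 3524 regions had lower H3K4me2. Across the 4677 regions the differences of both marks correlated with Pearson's r = 0.50 and Spearman's rho = 0.49, as a description over regions that share libraries and low counts.

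The marks' differences were also tested against each other in 1 fit. The H3K4me2 difference was less negative (or more positive) than that of H3K27ac at 94 regions (2.01%), and more negative at 2 (0.0428%), near Eif2b2 and in Srpk2. After median-ratio scaling these counts were 38 and 10. The largest rises included one of the 94, Tnfrsf12a, where the gap between marks was 2.79 on the log2 scale (limma adjusted p = 0.000819). Where both the basal H3K4me2 was in the lowest tertile and H3K27ac was lower, 197 of 415 regions had lower H3K4me2 (47.5%). In the highest tertile 1 of 247 such regions did (0.4%), at medians of 58.0 and 78.4 tags in Egr2flfl and 60.64 and 74.63 in LyzMCreEgr2flfl.

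**Figure D5:**
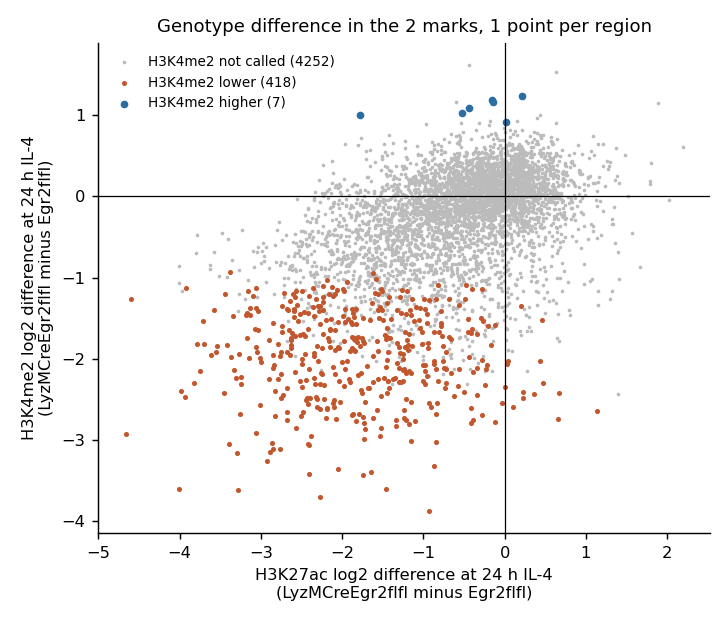
Log2 difference between genotypes at 24 h of H3K4me2 (vertical axis) against that of H3K27ac (horizontal axis), with 1 point for each of the 4677 regions. Points of the 418 regions with lower and the 7 with higher H3K4me2 are coloured. Most lower regions lie left of 0 on the H3K27ac axis, and the higher region farthest to the left is Tnfrsf12a, at -1.79.

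Binding of the factors was counted in 300 bp windows on the same peaks. PU.1 at 24 h was lower at 438 regions (9.36%) and C/EBPβ at 386 (8.25%). Both depended on the scaling: under the median-ratio scaling 244 regions had lower PU.1. For C/EBPβ the count was then 0 by limma, with 752 regions at an unadjusted p below 0.05 in either direction. In regions with lower H3K4me2, PU.1 had medians of 8.57 and 8.65 tags in Egr2flfl and 2.23 and 2.02 in LyzMCreEgr2flfl at 24 h. In basal its medians there were 2.55 and 2.09 against 1.93 and 1.63. Lower PU.1 and lower H3K4me2 coincided at 147 regions, which is 35.2% of the regions with lower H3K4me2 and 33.6% of those with lower PU.1. For C/EBPβ the overlap was 110 regions (26.3% and 28.5%). After median-ratio scaling of the factors and of H3K4me2, the overlaps were 51 regions for PU.1 and 0 for C/EBPβ.

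STAT6 at 24 h was lower at 1 region by limma (0.021%) and PPARγ at 0, with 702 and 670 at an unadjusted p below 0.05. Their median log2 differences over all regions were still negative, at -0.79 and -1.28. Under the median-ratio scaling these medians were -0.15 and -0.59. The correlation of the H3K4me2 difference across regions was 0.57 with that of PU.1, 0.36 with C/EBPβ, 0.20 with STAT6 and 0.01 with PPARγ (Pearson's r). By Spearman's rho the values were 0.53, 0.36, 0.21 and 0.01. RNA polymerase II had 1 library a group that matched a sample of the series, and hence no test, and its difference correlated at 0.11. Regions with little PU.1 before IL-4 held most lower regions: 276 of 1559 in the lowest tertile of basal PU.1 (17.7%), against 24 in the highest (1.54%). Within the lowest tertile of basal H3K4me2, 26.7% of the 967 regions that were also lowest in PU.1 were lower, against 7.5% of the 160 that were highest in PU.1.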

How the data were processed

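ChIP-seq reads were aligned by the authors with Bowtie2 to mm10 and counted with HOMER, per the labels, which give no versions. The labels of the series also name the build hg38, whereas the methods of the study name mm10. The deposited values are signal: tags per window around EGR2 peaks, which the authors normalized to a library total of 10000000. The tags of 8 H3K4me2 libraries, with 2 in each group of genotype and treatment, were fitted with limma 3.58.1 (trend, R 4.3.3) on log2(tags + 1) for genotype, IL-4 and their interaction, so a log2 difference understates the change of low regions. Benjamini-Hochberg adjustment ran over all 4677 regions at 0.05, with no filter. The fit was repeated after median-ratio scaling. Whole reads were recovered from the values (100.0% within 0.1 of a whole read) for edgeR 4.0.16 and DESeq2 1.42.0. No factor or mark was fitted together with another, except for the test between marks. Scripts were tested on simulated data, where limma called 20% of regions made 2-fold lower and 81% of those made 4-fold lower. In the third of regions with the fewest reads these shares were 6.5% and 50%, so many real differences can go uncalled. Intervals cover counting error only. Replicates of a group differed by more than sampling noise (chi-square per degree of freedom 2.05 to 2.746).

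Regions named were the 10 largest falls and rises with at least 16 tags in either genotype and no overlap, and the strongest region of each listed gene within 100 kb, by GENCODE vM21. Members, gene lists and tests were chosen with earlier results of these data known. Promoters came from RefSeq (GRCm38). A further 4 value columns, named as second replicates of RNA polymerase II, matched no sample by name and were not used. Alternatives are a pseudocount of 5, a mean of 16 tags, the 24 h libraries alone, a replicate block, leaving out each library, and both count tools.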

Additional observations from a re-analysis of the deposited data

Results flagged for a closer look

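The difference between genotypes at 24 h departed from that in basal at 2 regions, by the interaction term of the limma fit over 4677 regions. Near Src, a tyrosine kinase gene, the region 8.21 kb upstream had 26.85 and 22.56 tags in Egr2flfl and 2.89 and 1.54 in LyzMCreEgr2flfl at 24 h, and 1.8 and 2.51 against 6.34 and 3.07 in basal. The interaction was -3.83 on the log2 scale (limma adjusted p = 0.0134). At Spata21, 0.55 kb from the start, the tags were 30.07 and 28.2 against 1.44 and 6.16 at 24 h, and 2.7 and 1.89 against 9.87 and 4.82 in basal, an interaction of -4.13 (limma adjusted p = 0.000453). In both regions the Egr2flfl libraries were low in basal and high at 24 h, and the LyzMCreEgr2flfl libraries were not. Under the median-ratio scaling the interaction passed the limma threshold at 0 regions, with 351 at an unadjusted p below 0.05. Leaving out either Egr2flfl library at 24 h or LyzMCreEgr2flfl replicate 1 in basal also gave 0 regions by limma, with 208 to 349 at an unadjusted p below 0.05, and without LyzMCreEgr2flfl replicate 1 at 24 h 1 region passed. The other 4 libraries, left out 1 at a time, gave 3 to 13 regions. Groups of 2 libraries were too small to look for single libraries far from the rest.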

How the results depend on the processing

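The count of 418 lower regions became 169 under the median-ratio scaling, 77 with a mean of at least 16 tags (3419 tested), 148 with edgeR and TMM and 46 with DESeq2, and ranged from 109 to 455 when 1 library was left out. The count of 7 higher regions became 45, 3 and 45 under the first 3 of these, 51 with a replicate block, and 1 to 21 when 1 library was left out. The median difference (-0.16) then ranged from -0.31 to -0.02, and was -0.02 under the median-ratio scaling, -0.02 with DESeq2, -0.01 with a mean of at least 16 tags and 0.01 with TMM. Under the median-ratio scaling, leaving out 1 library at 24 h gave 2, 33, 38 and 58 lower and 1, 69, 3 and 5 higher regions, and a replicate block gave 388 and 297 (56.6% of calls lower). The labels do not pair libraries by number. Deviations of same-numbered libraries correlated at 0.141 at 24 h and at 0.077 to 0.203 over the pairs of groups, and the block with the deposited scaling gave 508 lower regions. On the recovered reads with library totals, edgeR gave 444 lower and 5 higher. In the lowest tertile the 368 lower regions became 140 under the median-ratio scaling, 125 with TMM, 41 with DESeq2, and 99 to 262 without 1 library. These 3 sets of settings for the tertile, and the median-ratio values for IL-4, PU.1 and C/EBPβ, were added after seeing the data. Its median of -0.98 was -0.68 for the lower of 2 equal groups. The fold rule with no filter gave 534 lower regions (2.5-fold) and 1349 (1.5-fold), with at least 32 tags 59 and 300, and under the median-ratio scaling 249 higher (1.5-fold). Under that scaling, lower regions numbered 0 in basal (263 at an unadjusted p below 0.05) and 0 for the interaction by limma, and basal gave 2 with the block. H3K27ac became 498 lower and 538 higher, the test between marks 10 and 38, and IL-4 in Egr2flfl 45 lower (7 before) and 136 higher, and in LyzMCreEgr2flfl 8 lower (1 before). PU.1 became 244 and C/EBPβ 0. Of the named regions, the difference at Arg1 turned positive under the median-ratio scaling (0.13, with the block 0.13), TMM (0.16) and DESeq2 (0.13), and without Egr2flfl replicate 2 (0.13) or LyzMCreEgr2flfl replicate 1 (0.02), and was 0.045, 0.11, 0.13 and 0.21 under that scaling without 1 library at 24 h. Without 1 library it ranged from -0.15 to 0.13. Csf1r turned negative without Egr2flfl replicate 1 (-0.14) or LyzMCreEgr2flfl replicate 2 (-0.16), in a range of -0.16 to 0.53. The causes were not tested.

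With 2 libraries a group, the exact test cannot go below 0.333. In the lowest tertile 16 tags stand for as few as 14.9 reads, and a region that missed the threshold there is not shown to be equal between genotypes.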

Other observations

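Regions called higher under the median-ratio scaling numbered 45, and of 40 with a C57 match 77.5% were at least 1.5-fold lower after IL-4 in C57, against 38.7% of all 3018 matched regions. However, 38 of the 45 lay in the highest tertile of basal H3K4me2, where most matched regions were lower after IL-4 in C57. In that tertile 890 regions were lower in C57, 416 moved less than 1.5-fold and 4 were higher. Among its regions called higher by genotype, these counts were 30, 4 and 0. The C57 libraries were not rescaled, and the median C57 change over all matched regions was -0.43 on the log2 scale. The median basal level of the 45 regions was 79.6 tags, against 6.48 in the 169 lower regions. Of the 45 regions, 24.44% lay within 1 kb of a gene start, against 3.93% of all regions. Their median level at 24 h was 57.2 tags in Egr2flfl and 95.13 in LyzMCreEgr2flfl.

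On chromosome 10, which carries Egr2 and Lyz2, 11 of 286 regions were lower (3.85%), and on chromosome X 2 of 64 (3.12%). On each other chromosome the share was between 6.49% and 12.58%. No region had the start of Lyz2 as its nearest.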
